A study of Mus musculus with 4 samples.

Results

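This account covers 33 genes of glucose and lactate transport, glycolysis, its regulators and the pentose phosphate pathway, chosen by symbol from the 24346 genes listed in each table. The measurement was RNA-seq of *in vitro* MDSCs, immature myeloid cells grown from bone marrow (BM) of female C57BL/6J mice aged 6 to 8 weeks. All BM cells received 40 ng/ml GM-CSF for 4 days. The G-CSF group also received 5 ng/ml G-CSF and the Control group received none, with 2 biological replicates in each group (n = 2 throughout). The cells were a bulk culture, so fewer cells of a type and less RNA per cell cannot be told apart. Values were taken as FPKM, read fragments scaled to transcript length and library size. A gene passed the test at an adjusted p under 0.05 (limma on log2(FPKM + 0.1), Benjamini-Hochberg adjustment over 11725 genes tested).

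Glycolysis splits glucose into pyruvate and yields ATP. The pentose phosphate pathway branches off at glucose-6-phosphate: its oxidative branch makes NADPH, which feeds glutathione reduction and NADPH oxidase, and its non-oxidative branch makes ribose phosphate for nucleotides. Mature neutrophils are known to rely on glycolysis, and myeloid cells that take up glucose quickly release much of it as lactate. HIF-1, whose alpha subunit is encoded by *Hif1a*, is the textbook activator of many glycolytic genes.

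All 33 genes were listed and tested. With G-CSF, 12 were higher (36.4%; 13% of all genes tested were higher) and 3 were lower (9.1%; 11.8% of all genes tested), while 18 did not pass (24.8% of all genes tested passed in either direction). The genes that rose were *Slc16a1*, *Rpia*, *G6pdx*, *Pfkm*, *Tpi1*, *Pfkl*, *Pgk1*, *Ldha*, *Gpi1*, *Pgam1*, *Hk1* and *Hif1a*, and those that fell were *Slc2a3*, *Ldhb* and *Pfkfb4*. Most differences were small: 12 of the 15 genes that passed had an absolute log2 fold change under 0.5. The median log2 fold change of the 33 genes was 0.12, against 0.0027 for all genes tested, and 24 of the 33 lay above 0 (50.4% of all genes tested). Both G-CSF values lay above both Control values for 19 genes (34.0% of all genes tested) and below both for 8 (32.5% of all genes tested). Only *Slc2a3* also passed a fold change over 2, the limit used in the study (0.878% of all genes tested were lower, 0.478% higher and 1.36% in either direction).

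The number of genes that passed depended on single libraries, among these genes as among all genes tested. Each fit that left out a library kept only 1 in its group, and fewer of all genes tested passed as well. The log2 fold change kept its direction in each of these fits for all 15 genes that had passed. With equal replicate numbers as a block and every library kept, all 15 passed, with 16 higher and 4 lower. The labels name no shared culture or day for equal numbers. Without Control replicate 2, 3 genes remained higher and 2 lower, and the counts were the same without G-CSF replicate 1. Without Control replicate 1 there were 9 higher and 2 lower, and without G-CSF replicate 2 there were 10 higher and 1 lower. *Slc16a1*, *Rpia*, *G6pdx* and *Slc2a3* passed in all 4 of these fits, and the other 11 genes did not.

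**Figure D1:**
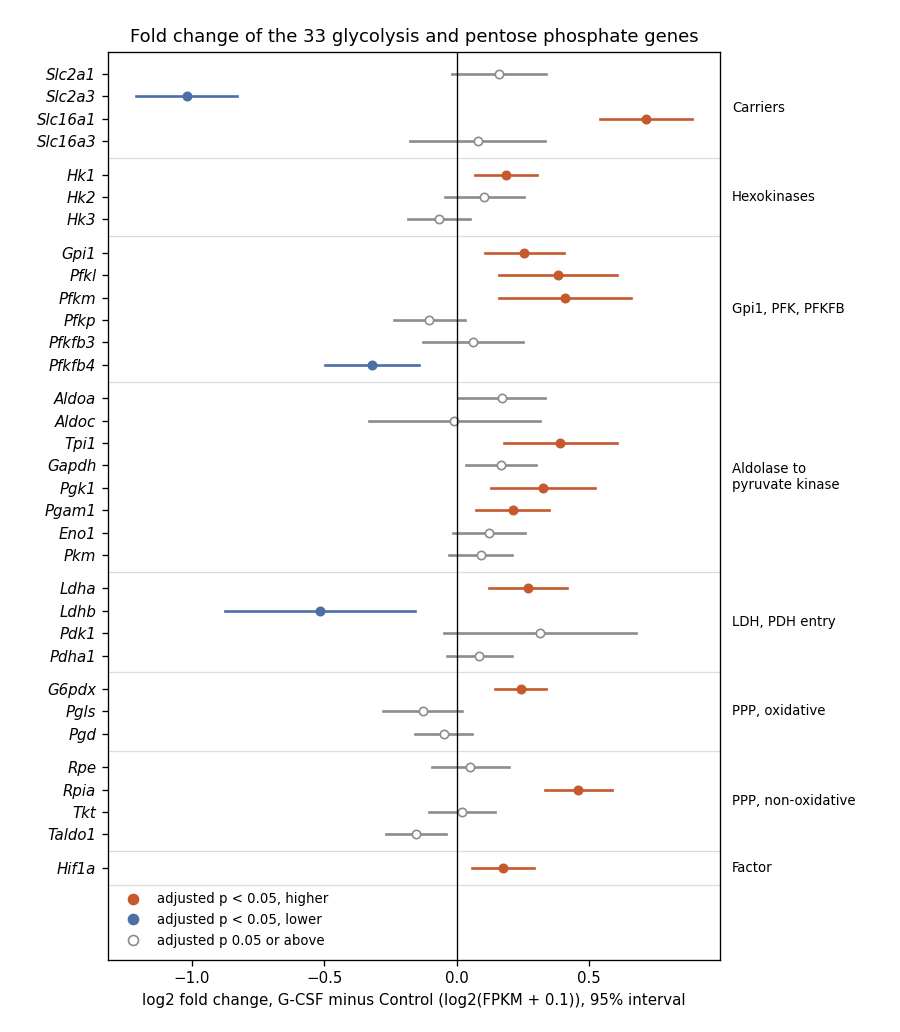
Log2 fold change of each of the 33 genes (x axis, G-CSF minus Control on log2(FPKM + 0.1)), grouped by role on the y axis, with 95% intervals from limma as lines. Filled points passed an adjusted p of 0.05 (12 higher, 3 lower) and open points did not. *Slc16a1* (0.72) lies farthest to the right and *Slc2a3* (-1.02) farthest to the left.

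The share of all FPKM taken by the 33 genes was 1.504% and 1.503% in the Control replicates and 1.749% and 1.658% in G-CSF. Their summed level was 10082 and 9642 FPKM in Control and 11238 and 10696 FPKM with G-CSF, so the groups did not overlap. No test was made of these sums, since an exact permutation test of 2 against 2 libraries cannot give a p below 0.33. These transcripts are abundant: 13 of the 33 genes had a mean above 200 FPKM over the 4 libraries and 5 a mean below 20 FPKM. *Gapdh*, *Aldoa* and *Pkm* had means above 1000 FPKM and ranked 32, 45 and 69 among the genes tested.

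**Figure D2:**
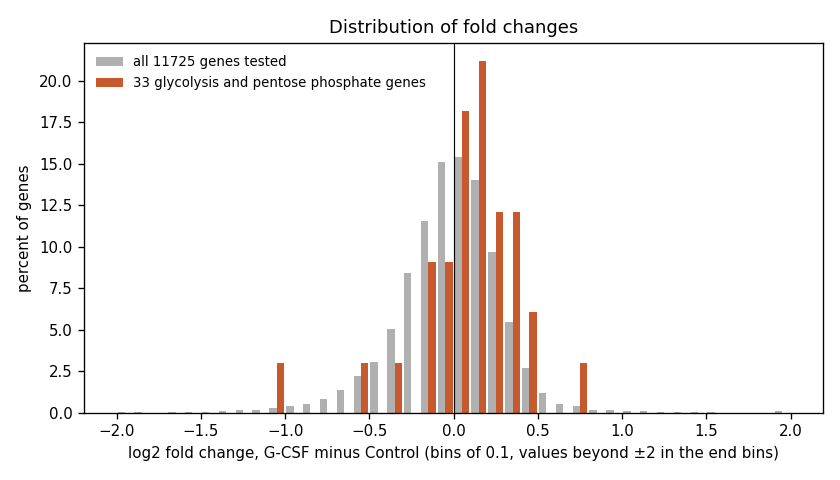
Percent of genes (y axis) in each bin of log2 fold change (x axis, bins of 0.1) for all 11725 genes tested in grey and for the 33 glycolysis and pentose phosphate genes in orange. The largest group of these genes, 7 of 33, falls between 0.1 and 0.2, and 1 gene lies below -1.

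The libraries were estimated to hold 13.4 and 14.2 M reads in Control and 12.4 and 15.7 M in G-CSF, and Pearson's r between replicates was 0.9945 in both groups across the genes tested, which are not independent replicates. An extraction note in the labels speaks of liver, and the hepatocyte genes *Alb*, *Apoa1*, *Ttr* and *Tat* were listed at 0 in all 4 libraries. The makeup of myeloid markers moved together with the groups. The summed level of 9 neutrophil markers was 80300 and 69840 FPKM in Control and 53610 and 53910 FPKM with G-CSF. Of the 9, 7 were lower (*Ly6g* was not analysed here). *S100a8* and *S100a9* made up most of the sum, with means of 33123 and 29634 FPKM in Control and 25688 and 20514 FPKM with G-CSF. In limma, *S100a9* was lower (adjusted p = 0.0233) and *S100a8* did not pass (adjusted p = 0.0715). The precursor genes *Mpo*, *Elane*, *Prtn3* and *Ctsg* summed to 812 and 688 FPKM in Control and to 1882 and 1770 FPKM with G-CSF, and all 4 rose. Monocyte markers summed to between 1302 and 1473 FPKM in the 4 libraries, with 1 of 5 higher and 1 lower. Lower in G-CSF were 3 of 5 macrophage markers (from 165 and 187 to 120 and 137 FPKM), 3 of 5 dendritic cell markers (from 2645 and 2264 to 1498 and 1208 FPKM), 2 of 3 eosinophil markers (from 260.4 and 338 to 208 and 162 FPKM) and 3 of 4 mast cell and basophil markers (from 81.3 and 80.3 to 52.0 and 55.9 FPKM). Summed levels of B cell, T and NK cell, stromal and erythroid markers were at most 4.93, 2.50, 1.36 and 0.33 FPKM, with 1 gene lower in each of the first 3 of these lists and the NK cell gene *Ncr1* at 0 in every library. The part of these markers in the differences of the 33 genes was not tested.

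*Hif1a* encodes the oxygen-regulated subunit of HIF-1, which is controlled mainly through the stability of the protein. It was at 47.6 and 48.1 FPKM in Control and 55.3 and 52.8 FPKM with G-CSF. The means were 47.9 ± 0.415 FPKM (SD) and 54.1 ± 1.75 FPKM (SD), and the groups did not overlap. The rise was 0.18 on the log2 scale (standard error 0.049, adjusted p = 0.0421). It passed in none of the 4 fits that left out a library, with adjusted p from 0.0643 without G-CSF replicate 2 to 0.175 without G-CSF replicate 1 (0.147 without Control replicate 1, 0.109 without Control replicate 2), nor with upper-quartile scaling (adjusted p = 0.0724) or median-ratio scaling (adjusted p = 0.0527).

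The letters that HIF-1 is known to bind, ACGTG or GCGTG (the core of the hypoxia response element), were searched on both strands in the 250 bases before the RefSeq starts (GRCm38.p6), with the E-box CACGTG, which is bound by MYC and related factors and which holds ACGTG on both strands. Of the 33 genes, 32 had an entry. *Slc2a3* had none. A gene can have several starts and was counted if any of its windows held a core. The 32 genes had 46 windows and the 9064 tested genes 11529, so chances of a match per gene were not equal. At least 1 core was found in 29 of 32 genes (90.6%), against 61.7% of 9064 tested genes and 41.5% of all 27018 genes with an entry. Among the 12 genes that rose, 10 held a core (83.3%), as did both genes that fell and had an entry, and 17 of the 18 genes that did not pass (94.4%). *Gpi1* and *Tpi1* rose and held none. CACGTG was found in 5 of the 32 genes (15.6%, against 10.1% of tested genes), of which 4 were among the 12 that rose. A match of letters is a description and no proof of a bound site, and these shares were not tested.

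The windows of 4 genes that rose are shown as examples, picked after their motifs were seen, of windows with an E-box or more than 1 core, with the E-boxes and cores on either strand in capitals. *Pfkm*, *Hk1* and *Pgam1* also rose and had such windows, which are not shown. Such windows were not limited to genes that rose. They also occurred in *Slc2a1*, *Slc16a3*, *Hk2*, *Pfkp*, *Pfkfb3*, *Gapdh*, *Eno1* and *Pdha1*, which did not pass. Each window shown is on the plus strand and ends at the base before the annotated start. In *Slc16a1* (chr3:104638414-104638663) the marked letters begin 200, 149 and 134 bases before the start. In *Ldha* (chr7:46845554-46845803) 2 E-boxes begin 145 and 48 bases and a further core 34 bases before it. In *Pgk1* (chrX:106186850-106187099) the cores begin at 150 and 131 bases, and in *Hif1a* (chr12:73907617-73907866) an E-box begins at 135 and a core at 70 bases.
Slc16a1: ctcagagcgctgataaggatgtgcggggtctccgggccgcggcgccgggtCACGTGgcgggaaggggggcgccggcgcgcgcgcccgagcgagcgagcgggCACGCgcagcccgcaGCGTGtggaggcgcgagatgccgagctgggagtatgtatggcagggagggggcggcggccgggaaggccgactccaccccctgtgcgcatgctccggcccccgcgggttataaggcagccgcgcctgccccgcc
Ldha: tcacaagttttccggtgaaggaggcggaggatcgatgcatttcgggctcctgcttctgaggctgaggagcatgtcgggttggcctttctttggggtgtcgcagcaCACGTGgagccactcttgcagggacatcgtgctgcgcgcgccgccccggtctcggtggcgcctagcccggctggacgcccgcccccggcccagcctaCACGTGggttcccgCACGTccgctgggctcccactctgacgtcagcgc
Pgk1: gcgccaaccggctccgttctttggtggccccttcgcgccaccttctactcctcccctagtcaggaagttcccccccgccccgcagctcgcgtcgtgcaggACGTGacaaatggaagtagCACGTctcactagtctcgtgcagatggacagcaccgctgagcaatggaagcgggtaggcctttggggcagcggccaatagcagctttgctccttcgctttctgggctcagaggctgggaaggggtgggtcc
Hif1a: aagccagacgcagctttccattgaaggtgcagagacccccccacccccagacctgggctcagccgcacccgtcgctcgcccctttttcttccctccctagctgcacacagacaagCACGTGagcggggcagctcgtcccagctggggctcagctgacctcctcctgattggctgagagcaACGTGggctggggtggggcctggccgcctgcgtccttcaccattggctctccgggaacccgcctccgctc

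Glucose enters myeloid cells through the facilitative carriers encoded by *Slc2a1* (GLUT1) and *Slc2a3* (GLUT3), of which *Slc2a3* passed the test. *Slc2a3*, on chromosome 6 (GRCm38, 122727809 to 122801640, minus strand), was at 33.9 and 29.6 FPKM in Control and at 16.0 and 15.1 FPKM with G-CSF. Both G-CSF libraries lay at about the same level, well below both Control libraries (means 31.7 ± 3.04 and 15.6 ± 0.663 FPKM, SD). *Slc2a3* fell by 1.02 on the log2 scale (standard error 0.08, adjusted p = 0.00171). It passed in every fit that left out a library, but its log2 fold change was -0.92 without Control replicate 1 and -0.98 without G-CSF replicate 2, inside a fold of 2. *Slc2a1* was at 83.0 and 76.6 FPKM in Control and 95.3 and 83.3 FPKM with G-CSF, with no overlap. Its difference of 0.16 (95% interval -0.02 to 0.34, adjusted p = 0.163) did not pass, although it did without G-CSF replicate 2 (adjusted p = 0.0467). The share of *Slc2a3* in the summed FPKM of the pair was 29.0% and 27.8% in Control and 14.4% and 15.3% in G-CSF, and the sum itself was 117 and 106 FPKM in Control and 111 and 98.4 FPKM with G-CSF.

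Lactate leaves and enters cells through the monocarboxylate carriers encoded by *Slc16a1* (MCT1) and *Slc16a3* (MCT4, the carrier typical of cells that export lactate). *Slc16a1*, on chromosome 3 (GRCm38, 104638668 to 104658462, plus strand), was at 9.82 and 10.5 FPKM in Control and 17.2 and 16.4 FPKM with G-CSF. The means were 10.2 ± 0.489 and 16.8 ± 0.557 FPKM (SD), far apart against the spread within each group. The rise of 0.72 on the log2 scale (standard error 0.073, adjusted p = 0.00326) was the largest among the 33 genes, and the adjusted p was at most 0.0115 with a library left out. *Slc16a3* was far more abundant, at 116 and 97.2 FPKM in Control and 122 and 103 FPKM with G-CSF. Its groups overlapped, with a difference of 0.08 (95% interval -0.18 to 0.33, adjusted p = 0.618). The share of *Slc16a1* in the pair was 7.79% and 9.76% in Control and 12.3% and 13.7% in G-CSF.

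**Figure D3:**
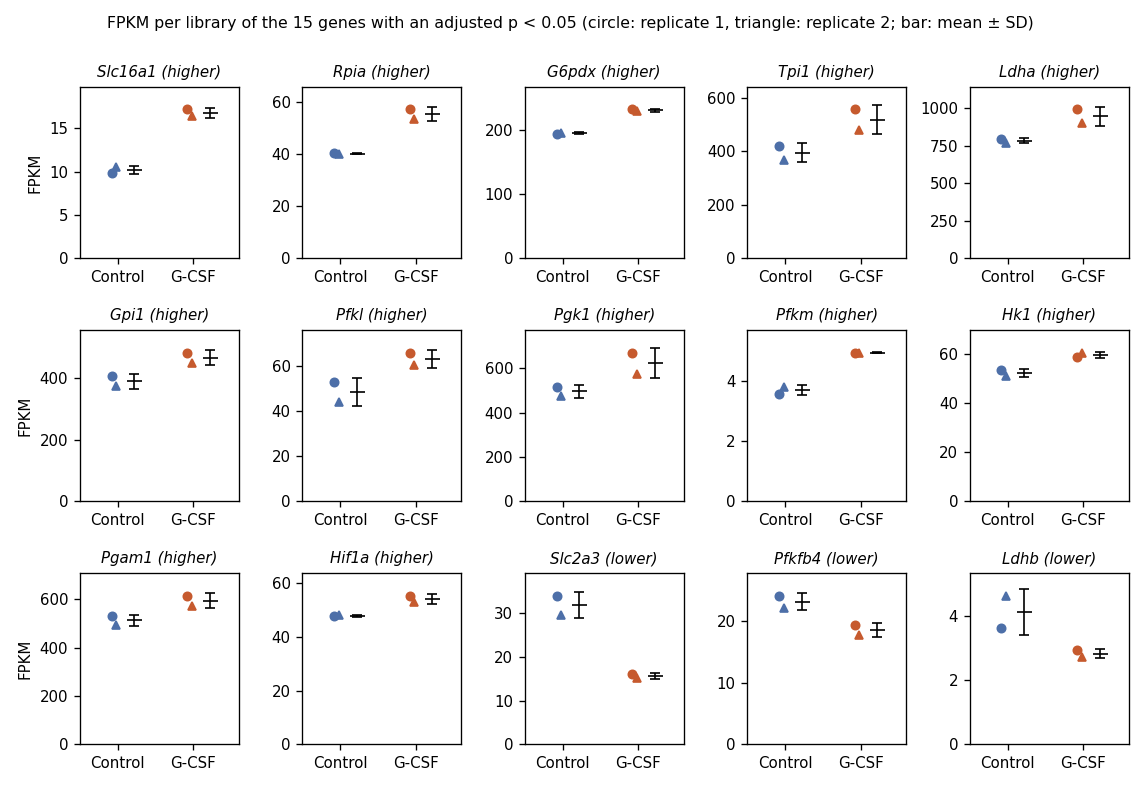
FPKM (y axis, from 0) of the 15 genes with an adjusted p under 0.05 in Control and G-CSF libraries, with circles for replicate 1, triangles for replicate 2 and black bars for the mean ± SD (n = 2). The groups do not overlap in any of the 15 panels, and *Slc16a1* and *Slc2a3* show the widest gaps relative to their levels.

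Hexokinases trap glucose in the cell as glucose-6-phosphate. *Hk3*, the form typical of myeloid cells, had the highest level of the 3, at 96.4 and 90.9 FPKM in Control and 87.9 and 90.7 FPKM with G-CSF. The G-CSF values were lower than both Control values by a small margin, and the difference of -0.07 did not pass (95% interval -0.19 to 0.05, adjusted p = 0.346). *Hk1*, which can bind to mitochondria, was at 53.6 and 51.4 FPKM in Control and 58.8 and 60.8 FPKM with G-CSF. The means of 52.5 ± 1.57 and 59.8 ± 1.39 FPKM (SD) gave a rise of 0.19 (standard error 0.049, adjusted p = 0.035). With a library left out, the adjusted p of *Hk1* was between 0.0689 (without Control replicate 1) and 0.144 (without Control replicate 2), and 0.0733 and 0.126 without G-CSF replicates 1 and 2. *Hk2*, the form best known for its induction by HIF-1, was at 27.5 and 26.6 FPKM in Control and 30.4 and 27.9 FPKM with G-CSF, a difference of 0.11 (95% interval -0.04 to 0.26, adjusted p = 0.259). The summed FPKM of the 3 genes was 177 and 169 in Control and 177 and 179 in G-CSF, and the share of *Hk1* in it was 30.2% and 30.4% in Control and 33.2% and 33.9% in G-CSF.

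Glucose-6-phosphate isomerase (*Gpi1*) and phosphofructokinase carry the sugar phosphate toward its cleavage, and phosphofructokinase is the main point of control of glycolysis. *Gpi1* was at 406 and 372 FPKM in Control and 481 and 447 FPKM with G-CSF, and it rose by 0.26 (standard error 0.062, adjusted p = 0.0283). *Pfkl*, the liver-type subunit, which is also the main subunit of neutrophils, was at 53.0 and 44.0 FPKM in Control and 66.0 and 60.3 FPKM with G-CSF, and it rose by 0.38 (standard error 0.093, adjusted p = 0.0288). Groups did not overlap for either gene. The platelet-type subunit gene *Pfkp* was at 65.1 and 60.3 FPKM in Control and 59.5 and 57.0 FPKM with G-CSF, a difference of -0.10 that did not pass (95% interval -0.24 to 0.03, adjusted p = 0.218). The muscle-type subunit gene *Pfkm* was low, at 3.58 and 3.81 FPKM in Control and 4.92 and 4.95 FPKM with G-CSF, and it rose by 0.41 (standard error 0.1, adjusted p = 0.0328). The order of the 2 main subunits was therefore *Pfkp* above *Pfkl* in both Control libraries and the reverse in both G-CSF libraries. *Pfkl* made up 43.6% and 40.7% of the summed FPKM of the 3 subunits in Control and 50.6% and 49.3% in G-CSF.

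None of these rises passed in every fit that left out a library, while the direction held in each. The log2 fold change lay between 0.19 and 0.32 for *Gpi1*, 0.25 and 0.52 for *Pfkl*, and 0.37 and 0.45 for *Pfkm*. With equal replicate numbers as a block, the adjusted p in limma was 0.00221 for *Gpi1*, 0.00112 for *Pfkl* and 0.0215 for *Pfkm*. Without Control replicate 2 and without G-CSF replicate 1, the adjusted p was 0.0935 and 0.11 for *Gpi1* and 0.0627 and 0.0908 for *Pfkl*. For *Pfkm* it was between 0.0639 (without Control replicate 2) and 0.119 (without Control replicate 1), and 0.11 and 0.106 without G-CSF replicates 1 and 2. Of the 75-base windows of *Pfkm* transcripts, 8.1% also occur in the transcripts of *Gm26513*, so that part of its reads cannot be assigned.

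The PFKFB enzymes make and break fructose bisphosphate of the regulatory kind, the strongest activator of phosphofructokinase. *Pfkfb4* was at 24.1 and 22.2 FPKM in Control and 19.4 and 17.7 FPKM with G-CSF, with both G-CSF values below both Control values. The means were 23.2 ± 1.37 and 18.5 ± 1.16 FPKM (SD). It fell by 0.32 on the log2 scale (standard error 0.074, adjusted p = 0.0246), but did not pass without Control replicate 1 (adjusted p = 0.0982) or without G-CSF replicate 2 (adjusted p = 0.0834). *Pfkfb3*, whose product favours the kinase reaction, was at 17.7 and 16.1 FPKM in Control and 18.5 and 16.8 FPKM with G-CSF. Its groups overlapped (difference 0.06, 95% interval -0.13 to 0.25, adjusted p = 0.596). The share of *Pfkfb4* in the pair was 57.7% and 57.9% in Control and 51.1% and 51.3% in G-CSF.

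**Figure D4:**
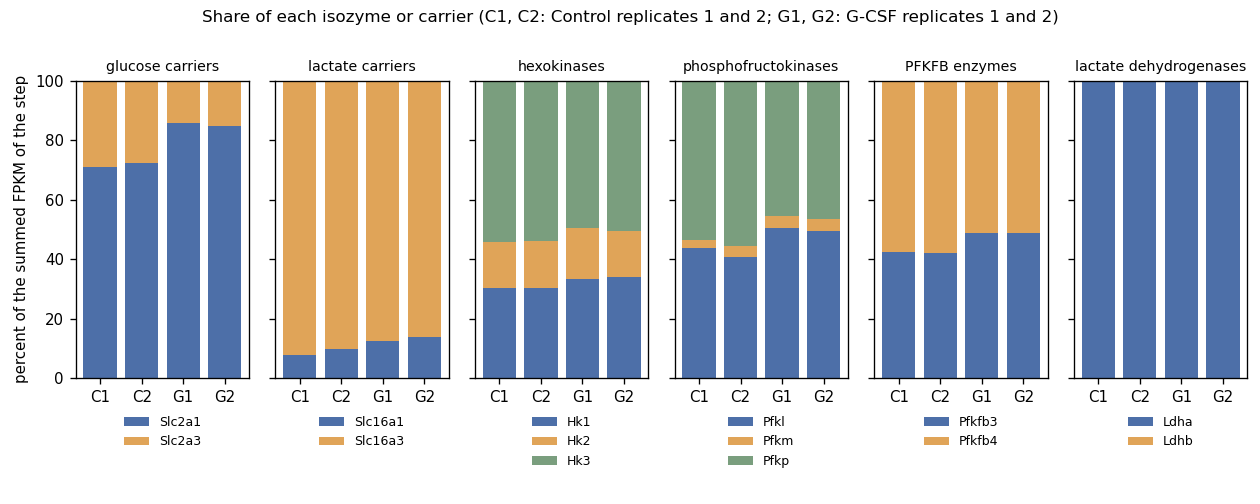
Share of each isozyme or carrier in the summed FPKM of its step (y axis, percent) in the 4 libraries (x axis, C1 and C2 for Control, G1 and G2 for G-CSF). The panel of glucose carriers holds only *Slc2a1* and *Slc2a3*, without *Slc2a6*. The share of *Slc2a3* in this pair is 29.0% and 27.8% in Control and 14.4% and 15.3% in G-CSF. *Pfkl* and *Pfkp* change order between the groups.

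From aldolase to pyruvate kinase, 7 of the 8 genes had both G-CSF values above both Control values (34.0% of all genes tested), and 3 of the 8 passed (13% of all genes tested were higher). The summed level of these genes was 6546 and 6237 FPKM in Control and 7446 and 7039 FPKM with G-CSF, a ratio of the group means of 1.13. *Tpi1*, which interconverts the triose phosphates, was at 419 and 368 FPKM in Control and 556 and 478 FPKM with G-CSF. Its means of 394 ± 36.0 and 517 ± 54.7 FPKM (SD) gave a rise of 0.39 (standard error 0.089, adjusted p = 0.0238). *Pgk1*, on chromosome X (GRCm38, 106187100 to 106203699, plus strand), encodes the kinase of the first ATP-yielding step. It was at 517 and 475 FPKM in Control and 671 and 575 FPKM with G-CSF, and rose by 0.33 (standard error 0.082, adjusted p = 0.0317). *Pgam1*, which encodes phosphoglycerate mutase, was at 528 and 495 FPKM in Control and 614 and 571 FPKM with G-CSF, and rose by 0.21 (standard error 0.058, adjusted p = 0.0402). In all 3 genes, replicate 1 lay above replicate 2 in both groups.

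None of these 3 rises passed without Control replicate 2 (adjusted p of 0.06 for *Tpi1*, 0.0879 for *Pgk1* and 0.141 for *Pgam1*) or without G-CSF replicate 1 (0.0695, 0.098 and 0.169). *Pgam1* also missed the threshold with upper-quartile scaling (adjusted p = 0.0633) and with median-ratio scaling (adjusted p = 0.0517). Many of these genes have processed copies elsewhere in the genome. Windows of 75 bases that also occur in other genes made up 52.8% of the transcripts of *Pgk1* (chiefly the retrogene *Pgk1-rs7*) and 34.9% of those of *Pgam1* (chiefly *Pgam1-ps2*), so reads of these genes may have been split by the authors' counting.

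The other 5 genes of this stretch did not pass. *Gapdh*, which encodes glyceraldehyde-3-phosphate dehydrogenase and was the reference gene of the study's qRT-PCR, was at 1762 and 1682 FPKM in Control and 1955 and 1912 FPKM with G-CSF. Both G-CSF values were higher, with a difference of 0.17 (95% interval 0.03 to 0.30, adjusted p = 0.069), and 22.6% of its windows occur in 123 other genes, 115 of them pseudogenes. *Aldoa*, the main aldolase, was at 1446 and 1318 FPKM in Control and 1616 and 1493 FPKM with G-CSF (difference 0.17, 95% interval 0.0045 to 0.34, adjusted p = 0.119). *Aldoc*, the aldolase typical of brain, stood far lower and overlapped between groups, at 34.0 and 28.6 FPKM in Control and 35.4 and 27.2 FPKM with G-CSF (difference -0.0085, 95% interval -0.33 to 0.31, adjusted p = 0.97). Enolase makes phosphoenolpyruvate. *Eno1* was at 635 and 653 FPKM in Control and 733 and 671 FPKM with G-CSF (difference 0.12, 95% interval -0.01 to 0.26, adjusted p = 0.159), and 23.0% of its windows are shared, chiefly with *Eno1b*. *Pkm*, which encodes pyruvate kinase, was at 1203.5 and 1217 FPKM in Control and 1266 and 1311 FPKM with G-CSF (difference 0.09, 95% interval -0.03 to 0.21, adjusted p = 0.227), with 17.8% of windows shared.

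*Eno1b* is a near-identical copy of *Eno1*, with 80.6% of its windows in other genes, and was listed at 219 and 162 FPKM in Control and 214 and 254 FPKM with G-CSF. FPKM scales reads to the length of each gene, so a sum of the pair still depends in part on how reads were split. This sum was 854 and 815 FPKM in Control and 947 and 925 FPKM with G-CSF. The log2 ratio of the group means of this sum was 0.17, with no overlap and no test.

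Lactate dehydrogenase converts pyruvate to lactate and restores NAD. *Ldha*, on chromosome 7 (GRCm38, 46841475 to 46855627, plus strand), encodes the subunit that favours lactate formation and was at 795 and 769 FPKM in Control and 990.1 and 897 FPKM with G-CSF. The means were 782 ± 18.2 and 943 ± 66.0 FPKM (SD), and the rise was 0.27 on the log2 scale (standard error 0.061, adjusted p = 0.0239). *Ldhb*, which encodes the subunit of heart and other oxidative tissues, was scarce, at 3.61 and 4.63 FPKM in Control and 2.93 and 2.73 FPKM with G-CSF, and 12.6% of its windows occur in *Gm5514*. It fell by 0.52 (standard error 0.15, adjusted p = 0.0483). The 2 subunits thus moved in opposite directions, and the share of *Ldhb* in the pair was 0.452% and 0.598% in Control and 0.295% and 0.303% in G-CSF. Without Control replicate 2 the adjusted p was 0.068 for *Ldha* and 0.194 for *Ldhb*, without G-CSF replicate 1 it was 0.102 and 0.0924, and without G-CSF replicate 2 *Ldhb* was at 0.135.

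Pyruvate dehydrogenase feeds pyruvate into mitochondria, and its kinases switch it off. *Pdha1*, which encodes a subunit of the enzyme, was at 56.2 and 56.3 FPKM in Control and 57.8 and 61.7 FPKM with G-CSF (difference 0.09, 95% interval -0.04 to 0.21, adjusted p = 0.261). *Pdk1*, which encodes a kinase known to be induced by HIF-1, was at 13.3 and 10.4 FPKM in Control and 16.6 and 12.9 FPKM with G-CSF. Replicate 1 was the higher library in both groups and the groups overlapped, and the difference of 0.31 did not pass (95% interval -0.05 to 0.68, adjusted p = 0.174).

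The pentose phosphate pathway had 7 genes, of which 2 rose and 0 fell (13% and 11.8% of all genes tested), with an unadjusted p under 0.05 in 3 (4629 of the 11725 genes tested) and a median log2 fold change of 0.02. *G6pdx*, on chromosome X (GRCm38, 74409483 to 74429194, minus strand), encodes glucose-6-phosphate dehydrogenase, the enzyme that commits glucose to the oxidative branch. It was at 195 and 196 FPKM in Control and 233 and 229.9 FPKM with G-CSF. Replicates differed by little (196 ± 1.21 and 231 ± 2.05 FPKM, SD), and the rise was 0.24 on the log2 scale (standard error 0.041, adjusted p = 0.0103, at most 0.0417 with a library left out). The next 2 enzymes of the branch did not pass. *Pgls*, which encodes the lactonase, was at 67.2 and 60.9 FPKM in Control and 60.1 and 56.9 FPKM with G-CSF (difference -0.13, 95% interval -0.28 to 0.02, adjusted p = 0.175, 18.1% of windows shared). *Pgd*, which encodes the second NADPH-forming enzyme, was at 445 and 454 FPKM in Control and 427 and 442 FPKM with G-CSF (difference -0.05, 95% interval -0.16 to 0.06, adjusted p = 0.452). The summed FPKM of the branch was nearly level, at 707 and 711 in Control and 719 and 728 in G-CSF, while the share of *G6pdx* in it was 27.6% in both Control libraries and 32.4% and 31.6% in G-CSF.

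In the non-oxidative branch, *Rpia* was the gene that rose. It lies on chromosome 6 (GRCm38, 70765720 to 70792232, minus strand) and encodes ribose-5-phosphate isomerase, which forms the precursor of nucleotide ribose. It was at 40.5 and 40.1 FPKM in Control and 57.3 and 53.6 FPKM with G-CSF. The means of 40.3 ± 0.31 and 55.5 ± 2.59 FPKM (SD) gave a rise of 0.46 on the log2 scale (standard error 0.053, adjusted p = 0.00431, at most 0.0135 with a library left out). *Rpe*, which encodes the epimerase acting on the same substrate, was at 29.0 and 30.9 FPKM in Control and 30.1 and 32.1 FPKM with G-CSF, with overlap (difference 0.05, 95% interval -0.09 to 0.20, adjusted p = 0.57). *Tkt*, which encodes transketolase, also overlapped, at 369 and 341 FPKM in Control and 357 and 364 FPKM with G-CSF (difference 0.02, and -0.0056 with upper-quartile scaling, 95% interval -0.10 to 0.15, adjusted p = 0.8).

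*Taldo1* encodes transaldolase, which returns pentose carbon to glycolysis. It was at 485 and 492 FPKM in Control and 428 and 450.3 FPKM with G-CSF, both below both Control values. The difference of -0.15 (95% interval -0.27 to -0.04) narrowly missed the threshold (adjusted p = 0.0553) and passed it with upper-quartile scaling (0.0302) and median-ratio scaling (0.0438). The share of *Rpia* in the summed FPKM of the 4 genes was 4.38% and 4.43% in Control and 6.57% and 5.96% in G-CSF.

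Other genes of glucose metabolism and the HIF pathway were read from lists of 93 genes, all listed, of which 62 were tested. Of these, 8 were higher (12.9%) and 7 lower (11.3%), near the shares of all genes tested (13% and 11.8%), with a median log2 fold change of 0.06. The counts of each list below stand against these same shares, and nothing particular to a list is read from them. Next to *Rpia*, the ribose phosphate made by the pathway is activated by the PRPP synthetases. *Prps1* was at 16.1 and 18.0 FPKM in Control and 25.7 and 26.4 FPKM with G-CSF and rose by 0.61 (adjusted p = 0.00461). *Prps2* was at 8.81 and 9.14 FPKM in Control and 12.2 and 11.2 FPKM with G-CSF and rose by 0.38 (adjusted p = 0.0189). With *Prps1l3* (0.41, adjusted p = 0.0137, 12.7% of windows shared), 3 of 6 tested genes of this list rose and 0 fell. Without G-CSF replicate 1 the adjusted p was 0.0834 for *Prps2* and 0.0571 for *Prps1l3*, and without Control replicate 1 it was 0.0651 for *Prps2*.

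In the glycogen list, 3 of 10 tested genes fell and 1 rose. *Pygl*, which encodes the phosphorylase that releases glucose units from glycogen, was at 343 and 328 FPKM in Control and 248 and 263 FPKM with G-CSF and fell by 0.39 (adjusted p = 0.00504). *Gbe1*, the branching enzyme, fell by 0.34 (adjusted p = 0.0165), but did not pass without Control replicate 1 (0.0653), G-CSF replicate 1 (0.0506) or G-CSF replicate 2 (0.0546). The others that passed were *Pgm2l1* (lower, adjusted p = 0.0228) and, named after its values were seen, *Pgm2* (higher, adjusted p = 0.0499), both of which interconvert sugar phosphates. Neither passed without Control replicate 2 (0.0917 for *Pgm2l1*, 0.128 for *Pgm2*) or G-CSF replicate 1 (0.0716 and 0.156), *Pgm2l1* failed without G-CSF replicate 2 (0.0633), and *Pgm2* failed with upper-quartile (0.0638) and median-ratio scaling (0.0577), lengths of basic transcripts (0.0514), a mean of at least 1 FPKM (0.051) and a pseudocount of 1 FPKM (0.0517).

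Among other carriers, 2 of 7 tested genes fell and 0 rose (unadjusted p under 0.05 in 3). *Slc2a6*, a further member of the glucose carrier family, was at 74.6 and 75.2 FPKM in Control and 61.2 and 63.1 FPKM with G-CSF and fell by 0.27 (adjusted p = 0.00992). *Mpc1*, a subunit of the mitochondrial pyruvate carrier, fell by 0.19 (adjusted p = 0.0381), but not without Control replicate 1 (0.165), G-CSF replicate 1 (0.149) or G-CSF replicate 2 (0.0564). For *Mpc1*, 9.7% of windows are shared. *Bsg*, the partner protein of the lactate carriers, differed by 0.18 (limma adjusted p = 0.0641). Of 8 other glycolytic isozymes and regulators, *Adpgk* was the 1 that passed. It encodes an ADP-dependent glucokinase and fell by 0.63, from 74.0 and 68.7 FPKM to 48.0 and 44.0 FPKM (adjusted p = 0.0031). In the pyruvate dehydrogenase complex, 2 of 9 tested genes rose, *Dlat* (0.34, adjusted p = 0.0147) and *Dld* (0.20, adjusted p = 0.0328). *Dlat* did not pass without G-CSF replicate 1 (0.064), nor did *Dld* (0.094), which also failed without Control replicate 1 (0.152) and G-CSF replicate 2 (0.0902). None of the 3 tested gluconeogenesis genes passed in limma, at an unadjusted p under 0.05 in 0 of them.

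Beside *Hif1a*, 1 of 7 tested HIF partners and hydroxylases passed. *Egln2*, which encodes a prolyl hydroxylase that marks HIF alpha subunits for breakdown, fell by 0.21 (adjusted p = 0.0368), with adjusted p from 0.109 to 0.152 without Control replicate 1, Control replicate 2 (0.114) or G-CSF replicate 1. *Egln3*, a hydroxylase gene that is itself a HIF target, was at 32.1 and 25.2 FPKM in Control and 46.2 and 33.3 FPKM with G-CSF (difference 0.46, adjusted p = 0.0886). *Vhl*, the recognition subunit of the ligase that acts on hydroxylated HIF, differed by -0.22 (adjusted p = 0.0771). Of 12 tested HIF targets outside glycolysis, 2 rose and 0 fell, and 4 of the 12 had a log2 fold change below 0. *Bnip3l* was at 65.7 and 62.3 FPKM in Control and 58.1 and 54.6 FPKM with G-CSF, with no overlap. Its difference of -0.18 did not pass (limma adjusted p = 0.0501), and 16.9% of its windows are shared. *Ak4*, a mitochondrial adenylate kinase, was at 4.41 and 3.25 FPKM in Control and 8.74 and 6.17 FPKM with G-CSF. It rose by 0.94 (limma adjusted p = 0.0209), and 8.5% of its windows are shared. *Vegfa*, an angiogenic factor, was at 13.1 and 10.8 FPKM in Control and 20.2 and 15.7 FPKM with G-CSF and rose by 0.58 (adjusted p = 0.0295). Neither passed without G-CSF replicate 1 (0.06 for *Ak4*, 0.0845 for *Vegfa*), and *Vegfa* did not pass without Control replicate 2 (0.0743). In both of these genes, as in *Tpi1*, *Pgk1*, *Ldha* and *Pdk1*, replicate 1 lay above replicate 2 in both groups. The same order held in 19 of the 33 genes (27.1% of all genes tested), among them *Slc2a3* and *Pfkfb4*, which fell.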

How the data were processed

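RNA-seq libraries of *in vitro* MDSCs (2 Control, 2 G-CSF) were made with a TruSeq stranded mRNA kit and read as 75-base single ends. The submitters' processing notes name TopHat2 2.0.13, Bowtie2 2.2.3, SAMtools 0.1.19, Cufflinks 2.2.1 and mm10. The authors deposited 1 table of 24346 genes per library, without a named unit; the deposited values were taken as FPKM because they are not whole and low values fall on steps that depend on transcript length (66.8% of 1913 low values within 0.05 reads of a whole number, 10.0% by chance). These steps gave the depths. Reads per gene were estimated from GENCODE M21 transcript lengths less 210 bases, found for 23972 names; the other 374 were left out, as were small RNA genes without a transcript over 200 bases. A gene was tested with 10 or more estimated reads in each of 2 libraries and 15 or more over the 4 libraries.

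G-CSF was compared with Control by limma 3.58.1 in R 4.3.3 (lmFit, eBayes with trend, two-sided) on log2(FPKM + 0.1), without a block, with Benjamini-Hochberg adjustment. The pseudocount understates the changes of low genes. The labels name no shared culture or day for equal replicate numbers. Alternatives were other scaling, filters and pseudocounts, transcript lengths from GENCODE basic models, a replicate block, and each library left out, where the lone library is assumed to vary like the other group. The genes, lists and tests were chosen with earlier results of these data known. Every one of the 33 genes is named, with values in each library, and of each other list at most 3 genes, taken from those with the smallest p, besides *Pgm2*, named after its values were seen. *Eno1b* is named as the copy of *Eno1*. Results for 1 gene of these lists are not reported here, and its list was counted without it. The 4 promoters were picked after their motifs were seen. Plots were drawn with matplotlib 3.10.9, and tables handled with pandas 2.3.3, numpy 2.4.6 and scipy 1.17.1 under python 3.11.15.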

Additional observations from a re-analysis of the deposited data

How the results depend on the processing

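Of the 33 genes, 12 higher and 3 lower were called, and the same genes passed with pseudocounts of 1 and 0.01 FPKM, a mean of at least 1 FPKM and, chosen after seeing the data, lengths of basic transcripts (11906 genes tested). With a pseudocount of 1 FPKM 0 genes passed a fold of 2. Both scalings gave 10 higher and 4 lower, without *Hif1a* and *Pgam1* and with *Taldo1*. With no filter, 22674 genes entered, many at 0 in every library: 95 of all genes passed, with 0 of the 33 higher, 0 lower and 0 past a fold of 2, and 0 higher and 0 lower of the other lists (limma; unadjusted p under 0.05 in 9 of the 33 and 18 of the others). Without genes at 0 in every library, chosen after seeing the data, 2015 passed, with 3 of the 33 higher and 2 lower. Of the other lists, 4 were then higher and 6 lower. Leaving out each library gave 1624 to 1969 calls in all (2912 with all 4), 3 to 10 of the 33 higher, 1 to 2 lower and 0 to 1 past a fold of 2, and 1 to 11 of the other lists higher and 3 to 6 lower. Of the 15 genes called, 4 passed in all of these fits.

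The replicates share only a number. Deviations from the group means correlated between equal numbers (r = 0.288 across genes tested, 0.58 across the 33), and replicate 1 was higher in both groups in 19 of the 33 genes, against 27.1% of all genes tested. With the replicate block, 4032 genes passed, with 16 of the 33 higher (*Aldoa*, *Gapdh*, *Pdk1* and *Slc2a1* added) and 4 lower (*Taldo1* added), all 15 kept, and 18 of the other lists higher and 11 lower. *Pdk1* (adjusted p = 0.00985) and, in the other lists, *Egln3* (0.000707) passed with the block. No result turned direction while past the threshold. Depth limits *Ldhb* most, with an estimated 22 reads in its lowest library (40 with lengths of basic transcripts).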
